A study of Mus musculus with 32 samples.

Results

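The genes described here make and package the neurotransmitter GABA, or encode the Dlx homeobox factors and the non-coding transcripts of the Dlx5-Dlx6 locus. They were chosen by name, as the rows of the deposited count table whose symbol is Gad1, Gad2, Slc32a1, Dlx1, Dlx2, Dlx5, Dlx6, Dlx6os1 or Dlx6os2. These 9 symbols matched 10 of the 55401 rows, because Dlx6os1 has 2 rows, and 9 of the 10 rows had enough reads to be tested, among 16042 tested genes. The second Dlx6os1 row, a transcript of 146 bases (ENSMUSG00000098326.1), held 8 counts in all libraries together and was not tested.

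The libraries were made from cerebral cortex RNA of 32 mice at an age of 6 weeks. The 12 euploid mice were +/+. The 10 Ts65Dn;Df(17)2 mice carried the freestanding additional chromosome of the Ts65Dn line together with the deficiency Df(17)2, and the 10 Dp(16)1/Df(16)8 mice carried a duplication within chromosome 16 opposite the deficiency Df(16)8. As background, each deficiency returns material found in only one of the trisomic lines to its usual dose, and the study's title gives its question as separating effects of gene dosage from effects of the additional chromosome itself. Each library is labelled with a different animal, and the aneuploid groups held 5 mice of each sex by label and the euploid group 6. Bulk tissue was sequenced, so that fewer cells of a type and less RNA per cell cannot be told apart in any value below.

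GABA is the main inhibitory transmitter of the forebrain. It is made from glutamate by glutamate decarboxylase, whose forms are encoded by Gad1 and Gad2, and is loaded into synaptic vesicles by the transporter encoded by Slc32a1. The Dlx factors are DNA-binding proteins of the embryonic ventral forebrain, from which both cortical interneurons and the projection neurons of the striatum arise, and these adult neurons, like those of the olfactory bulb, use GABA. Drd1, the dopamine receptor gene of striatal projection neurons and also of some deep cortical neurons, is therefore set beside the members in every library.

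The members lie on chromosomes 2 and 6, not on chromosome 16 or 17 (GRCm38, annotation GENCODE M21). Gad2 (ENSMUSG00000026787.3) spans chr2:22622205-22693874, Gad1 (ENSMUSG00000070880.10) chr2:70553072-70602014 and Slc32a1 (ENSMUSG00000037771.11) chr2:158610767-158615748, all on the forward strand. Dlx1 (ENSMUSG00000041911.3, chr2:71528113-71533981, forward strand) and Dlx2 (ENSMUSG00000023391.8, chr2:71543408-71546754, reverse strand) face each other with 9426 bases between them. Dlx6 (ENSMUSG00000029754.13, chr6:6863334-6868568, forward strand) and Dlx5 (ENSMUSG00000029755.10, chr6:6877805-6882085, reverse strand) are 9236 bases apart. The antisense transcript Dlx6os1 (ENSMUSG00000090063.6, chr6:6820189-6871592, reverse strand) runs across Dlx6, and Dlx6os2 (ENSMUSG00000094868.1, chr6:6863797-6865150, reverse strand) lies within the Dlx6 gene and shares 104 exon bases with it. Dlx1 shares 335 exon bases with the antisense gene Dlx1as, and Slc32a1 shares 697, which are 24.9% of its exon bases, with the antisense gene Gm14205. The strand setting of the counting is not given in the sources used here, so reads of such overlapping stretches cannot be assigned to a strand.

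Sequence before annotated starts is shown for Dlx6os1, the member with the smallest adjusted p between genotypes, and for Dlx2 as a Dlx factor of the other cluster. RefSeq windows (GRCm38.p6) matched 7 of the 9 symbols, with 8 windows in all. Each line gives 250 bases before the start, 5′ to 3′ on the strand of the gene, and capitals mark TAATT or its reverse complement AATTA, the core letters that homeobox proteins can bind.
Dlx6os1, chr6:6869534-6869783, reverse strand: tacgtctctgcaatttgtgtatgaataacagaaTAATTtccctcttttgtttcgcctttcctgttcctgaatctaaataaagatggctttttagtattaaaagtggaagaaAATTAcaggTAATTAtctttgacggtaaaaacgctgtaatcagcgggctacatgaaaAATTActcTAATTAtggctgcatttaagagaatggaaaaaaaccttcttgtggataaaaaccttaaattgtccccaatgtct
Dlx6os1, chr6:6861684-6861933, reverse strand: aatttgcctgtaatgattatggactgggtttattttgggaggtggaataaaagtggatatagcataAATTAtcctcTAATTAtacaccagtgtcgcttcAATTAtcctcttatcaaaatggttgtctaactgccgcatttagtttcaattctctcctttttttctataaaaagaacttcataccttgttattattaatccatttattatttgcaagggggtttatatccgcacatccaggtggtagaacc
Dlx2, chr2:71546755-71547004, reverse strand: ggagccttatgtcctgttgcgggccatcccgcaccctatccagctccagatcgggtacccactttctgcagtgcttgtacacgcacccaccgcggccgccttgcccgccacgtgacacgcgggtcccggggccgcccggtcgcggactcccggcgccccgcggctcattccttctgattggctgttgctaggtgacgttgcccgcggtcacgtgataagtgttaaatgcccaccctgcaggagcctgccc

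The first Dlx6os1 window held 7 matches and the second 4, where a TAATTA counts as a match at each of its overlapping positions. The window of Dlx6os2 held 1 match, and those of Gad1, Gad2, Slc32a1, Dlx1 and Dlx2 held 0. Of 32851 windows of the same length, 25.03% held at least 1 match and 1.379% at least 4. The Dlx6os1 windows had a GC content of 33.2% and 34%, that of Dlx2 66.4%, and the median window 52.4%. The first Dlx6os1 window lies within an exon of another annotated Dlx6os1 transcript, with all 250 bases, while the second shares 0 exon bases with the gene. Matches are a description of letters and not of binding.

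Each library held between 5795479 and 11189548 counts (median 7883104.5). As a check of the labelled tissue, all 10 listed markers of cortical excitatory neurons were tested, and their summed level was 2213 to 4744 CPM (counts scaled to library size and composition) in +/+, 2277 to 3703 CPM in Ts65Dn;Df(17)2 and 2139 to 4509 CPM in Dp(16)1/Df(16)8. Dp(16)1/Df(16)8 replicate 2, a library labelled female, held 14 counts of Xist, 696 of Ddx3y and 281 of Eif2s3y, which goes against its label. It was kept, and without it the counts of members called were 2 in Ts65Dn;Df(17)2 against +/+, 0 in the other genotype comparisons and in the interaction with sex, and 7 for the slope on Drd1; the other counts below were not taken without it. Ts65Dn;Df(17)2 replicates 3 and 6 stood apart in markers of the olfactory bulb: Cdhr1, of mitral and tufted cells, was at 56.8 and 55.7 CPM there and at 1.37 to 27.1 CPM in the other libraries.

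The GABA synthesis genes were the most abundant members. Compared per kilobase of exon over the 32 libraries, the level was 64.6 ± 25.4 CPM per kilobase (SD, n = 32) for Gad2, 52.3 ± 12.5 for Gad1 and 34.02 ± 12.73 for Slc32a1. Dlx6os1 followed at 12.3 ± 3.91, and Dlx6, Dlx5 and Dlx1 lay close together at 3.98 ± 2.01, 3.40 ± 1.43 and 2.97 ± 1.03 CPM per kilobase. The lowest levels were those of Dlx2, at 1.75 ± 0.71, and Dlx6os2, at 1.27 ± 0.69. Neighbours in this order were not all distinct. Gad2 was above Gad1 in 25 of 32 libraries, Dlx6 above Dlx5 in 20 and Dlx5 above Dlx1 in 19, with means closer than 1 SD, whereas Gad1 was above Slc32a1, Slc32a1 above Dlx6os1 and Dlx6os1 above Dlx6 in all 32 libraries. Dlx1 was above Dlx2 in 30 libraries and Dlx2 above Dlx6os2 in 27.

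**Figure D1:**
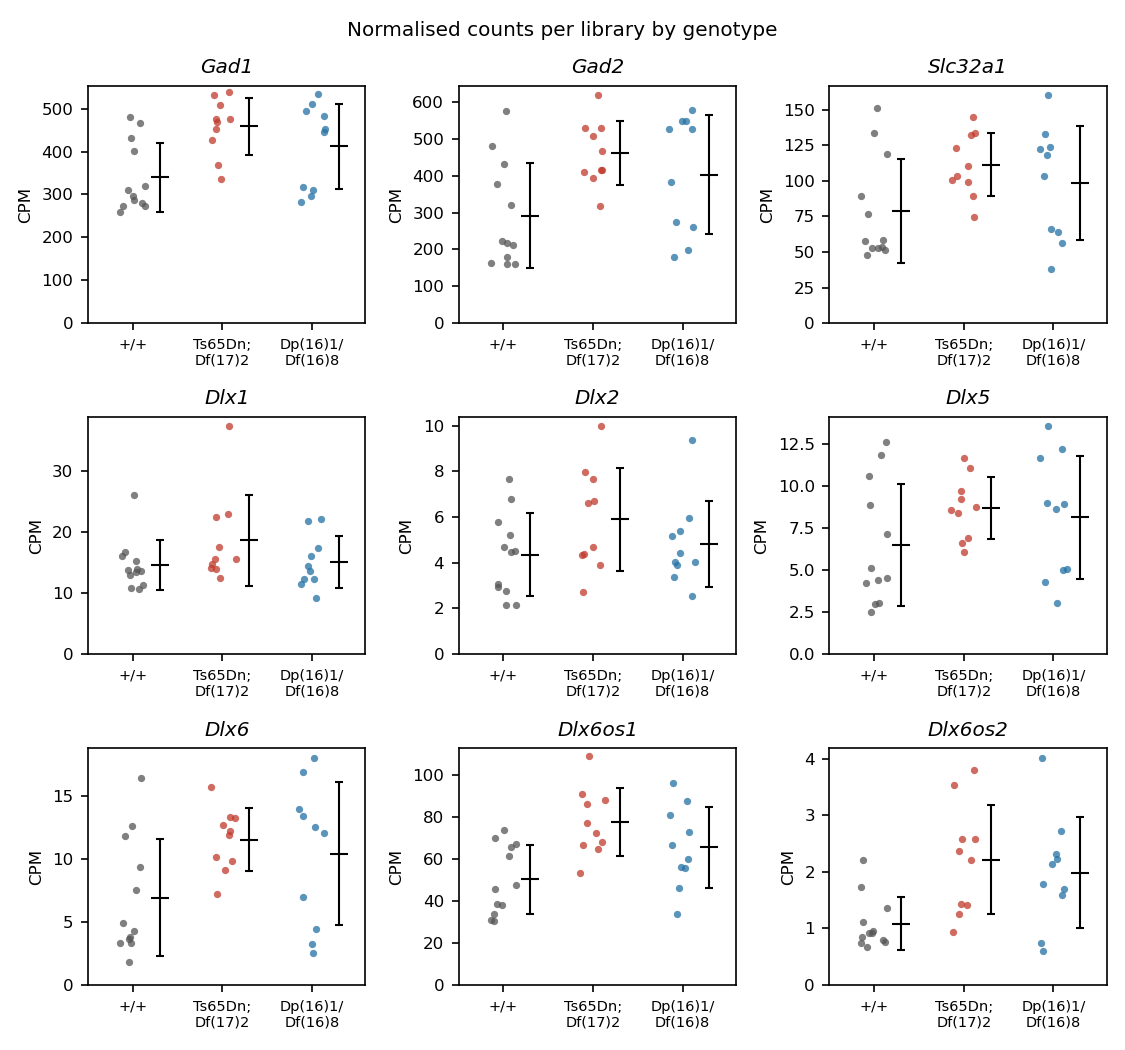
Each point is a library, the vertical axes give CPM from 0, and bars give the mean and SD of each genotype (12 +/+, 10 Ts65Dn;Df(17)2 and 10 Dp(16)1/Df(16)8 libraries). The groups overlap for every member, and Ts65Dn;Df(17)2 replicate 6 is highest for Dlx1, at 37.5 CPM.

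The comparison of Ts65Dn;Df(17)2 with +/+ asks whether these genes differ in cortex with the freestanding chromosome. Gad1, Dlx6os1 and Dlx6os2 rose, and the other 6 members had positive fold changes without passing. All 9 fold changes were thus above 1, as were 51.4% of those of all tested genes. The count was 3 of 9 members higher and 0 lower, against 1.75% of all tested genes called higher and 2.22% called lower, and 7 of 9 had an unadjusted p under 0.05, against 21.8% of all genes. Among the 3, Dlx6os2 passed the filter on low counts mainly through the aneuploid libraries. The median log2 fold change was 0.50 for the members and 0.0047 for all tested genes.

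Gad1, which encodes the larger form of the decarboxylase, had a lowest, median and highest level of 259, 303 and 480.5 CPM in +/+ and of 335, 473 and 539 CPM in Ts65Dn;Df(17)2. Of the +/+ libraries 8 of 12 lay below the lowest Ts65Dn;Df(17)2 library, and the others overlapped with that group. The log2 fold change was 0.43 (SE 0.12), with a Benjamini-Hochberg adjusted p of 0.0457 by the quasi-likelihood test of edgeR, and 9 of 10 Ts65Dn;Df(17)2 libraries were above the +/+ mean. Gad2, which encodes the form associated with synaptic vesicles, ranged more widely. It had a lowest, median and highest level of 160.2, 219 and 576 CPM in +/+ and of 319, 442 and 621 CPM in Ts65Dn;Df(17)2. All 10 Ts65Dn;Df(17)2 libraries were above the +/+ mean, yet with a log2 fold change of 0.67 (SE 0.22) Gad2 did not pass (adjusted p = 0.0714 by edgeR). Slc32a1, the vesicular GABA transporter gene, had 48.0, 58.2 and 151.6 CPM as lowest, median and highest level in +/+ and 74.8, 107 and 145 CPM in Ts65Dn;Df(17)2. Its log2 fold change was 0.50 (SE 0.22) with an adjusted p of 0.171, and the highest library in this comparison was a +/+ one.

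Dlx1 and Dlx2, the paired factors of the chromosome 2 cluster, did not pass. Dlx1 had 10.7, 13.7 and 26.04 CPM as lowest, median and highest level in +/+ and 12.4, 15.6 and 37.5 CPM in Ts65Dn;Df(17)2, with a log2 fold change of 0.35 (SE 0.17, adjusted p = 0.223 by edgeR). Dlx2 had 2.13, 4.51 and 7.68 CPM in +/+ and 2.73, 5.66 and 9.99 CPM in Ts65Dn;Df(17)2, with a log2 fold change of 0.43 (SE 0.23, adjusted p = 0.278). The medians of Dlx1 lay within 2 CPM of each other and the groups overlapped over most of their range. Dlx5 and Dlx6, the factors of the chromosome 6 cluster, did not pass either. Dlx5 had 2.51, 4.82 and 12.6 CPM in +/+ and 6.06, 8.68 and 11.7 CPM in Ts65Dn;Df(17)2, with a log2 fold change of 0.43 (SE 0.26, adjusted p = 0.334). Dlx6 had 1.80, 4.60 and 16.4 CPM in +/+ and 7.24, 12.05 and 15.7 CPM in Ts65Dn;Df(17)2, with a log2 fold change of 0.74 (SE 0.31, adjusted p = 0.149). The +/+ libraries held both the lowest and the highest values of Dlx5 and of Dlx6 in this comparison.

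The non-coding transcripts of the chromosome 6 cluster rose. Dlx6os1, a long non-coding RNA that is a common marker of forebrain GABA neurons, had 30.5, 46.5 and 73.6 CPM as lowest, median and highest level in +/+ and 53.2, 74.6 and 109 CPM in Ts65Dn;Df(17)2. Its log2 fold change was 0.62 (SE 0.16, adjusted p = 0.0259 by edgeR), and all 10 Ts65Dn;Df(17)2 libraries were above the +/+ mean. Dlx6os2 was scarce, with 5 to 17 counts per +/+ library and 6 to 29 per Ts65Dn;Df(17)2 library. It passed the filter on low counts mainly through the aneuploid libraries, as its median was 0.92 CPM in +/+ and 1.97 CPM in Dp(16)1/Df(16)8. Its call is therefore a description and not independent of that filter. In CPM its lowest, median and highest level was 0.67, 0.92 and 2.21 in +/+ and 0.94, 2.29 and 3.81 in Ts65Dn;Df(17)2, with a log2 fold change of 1.02 (SE 0.27, adjusted p = 0.0341 by edgeR) and 9 of 10 libraries above the +/+ mean. For both transcripts 7 of the 12 +/+ libraries lay below the lowest Ts65Dn;Df(17)2 library.

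These 3 calls depended on single libraries and on other markers. The count was 0 without +/+ replicate 4, without +/+ replicate 5 or without Ts65Dn;Df(17)2 replicate 7. It was 1 (Dlx6os1) without +/+ replicate 1, 7, 9 or 10 or without Ts65Dn;Df(17)2 replicate 3, 6 or 9, and 2 without Dp(16)1/Df(16)8 replicate 2. That last library enters this comparison through the shared spread, the filter, the scaling and the sex term, where it counts as female. Over the 32 fits that each leave out 1 library, Gad1 lost its call in 17, more fits than are named here. Its adjusted p by edgeR ran from 0.017 to 0.0868. Dlx6os2 lost its call in 10 fits and Dlx6os1 in 3. Without both libraries rich in Cdhr1 the count was 0, against 1.12% of all genes called higher, with a log2 fold change of 0.40 for Gad1, 0.52 for Dlx6os1 (adjusted p = 0.0773 by edgeR) and 0.77 for Dlx6os2, and Dlx1 went from 0.35 to 0.12. The animal numbers in the titles fall into runs of nearby numbers, and within the 2 runs with both genotypes all 9 members were higher in Ts65Dn;Df(17)2: the median difference in log2 CPM was 0.60 over 3 aneuploid and 5 euploid mice in one run and 0.36 over 5 and 3 in the other. The share of all genes higher within a run was not taken. Members also vary together across libraries, so such counts are not independent support. With these runs as a term in the model 0 members passed, against 0.592% of all genes called higher, with a log2 fold change of 0.42 for Gad1, 0.58 for Dlx6os1 and 0.90 for Dlx6os2.

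Drd1 did not pass between genotypes, though its levels spread widely within them. It had 12.8, 35.5 and 177 CPM as lowest, median and highest level in +/+, 38.1, 118 and 159 CPM in Ts65Dn;Df(17)2 and 19.1, 117 and 196 CPM in Dp(16)1/Df(16)8. Its log2 fold change in Ts65Dn;Df(17)2 against +/+ was 0.77 (SE 0.42, adjusted p = 0.286 by edgeR). The values fell into 2 ranges with no library between them: 12.8 to 38.1 CPM in 12 libraries and 79.8 to 196 CPM in 20. The lower range held 7 of 12 +/+, 1 of 10 Ts65Dn;Df(17)2 and 4 of 10 Dp(16)1/Df(16)8 libraries. The summed level of 20 markers of striatal projection neurons, all 20 of them tested, ran from 685 to 6961 CPM in +/+, from 1722 to 6186 CPM in Ts65Dn;Df(17)2 and from 809 to 6634 CPM in Dp(16)1/Df(16)8. With log2 CPM of Drd1 as a term in the model, 0 of 9 members passed in Ts65Dn;Df(17)2 against +/+, against 0.655% of all genes called higher, and 8 fold changes were positive. The log2 fold change was then 0.17 for Gad1, 0.25 for Gad2, 0.06 for Slc32a1, 0.33 for Dlx6os1 (adjusted p = 0.105) and 0.76 for Dlx6os2 (adjusted p = 0.22), and -0.04 for Dlx5. With a striatal score in its place, the mean log2 CPM of 14 striatal genes without Drd1, 0 passed as well, against 0.692% of all genes. Without such terms, DESeq2 and limma each called 3 members higher, against 2.66% and 2.11% of all genes.

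Of the markers of the olfactory bulb and of its migrating neuroblasts, 0 of 10 tested passed in Ts65Dn;Df(17)2 against +/+. Their summed level, for 12 genes of which 10 were tested, was 194 to 407 CPM in +/+, 358 to 575 CPM in Ts65Dn;Df(17)2 and 217 to 442 CPM in Dp(16)1/Df(16)8, and the mitral cell factor Tbx21 was listed at 0 counts in some libraries of each genotype. In replicates 3 and 6 of Ts65Dn;Df(17)2 the mitral cell gene Eomes was at 8.33 and 9.73 CPM and Tbx21 at 3.03 and 2.10 CPM. The same libraries held 22.5 and 37.5 CPM of Dlx1, 7.95 and 9.99 CPM of Dlx2, 87.9 and 109 CPM of Dlx6os1 and 3.53 and 3.81 CPM of Dlx6os2. Replicate 6 was the highest of its group for each of these members. An olfactory bulb score, chosen after the values were seen, was the mean log2 CPM of Doc2g, Cdhr1 and Th. Eomes and Tbx21 were also listed for it but did not pass the filter on low counts. They were not high in every library with a high score: +/+ replicate 6 scored 2.55 with Eomes at 0.38 and Tbx21 at 0.13 CPM. With this score as a term, 0 of 9 members passed against 0.468% of all genes called higher, and 5 fold changes were positive. The log2 fold change was then 0.11 for Gad1, 0.15 for Dlx6os1 and 0.38 for Dlx6os2. How much of the difference between genotypes goes with the content of striatum or olfactory bulb in the tissue was not tested beyond these models.

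**Figure D2:**
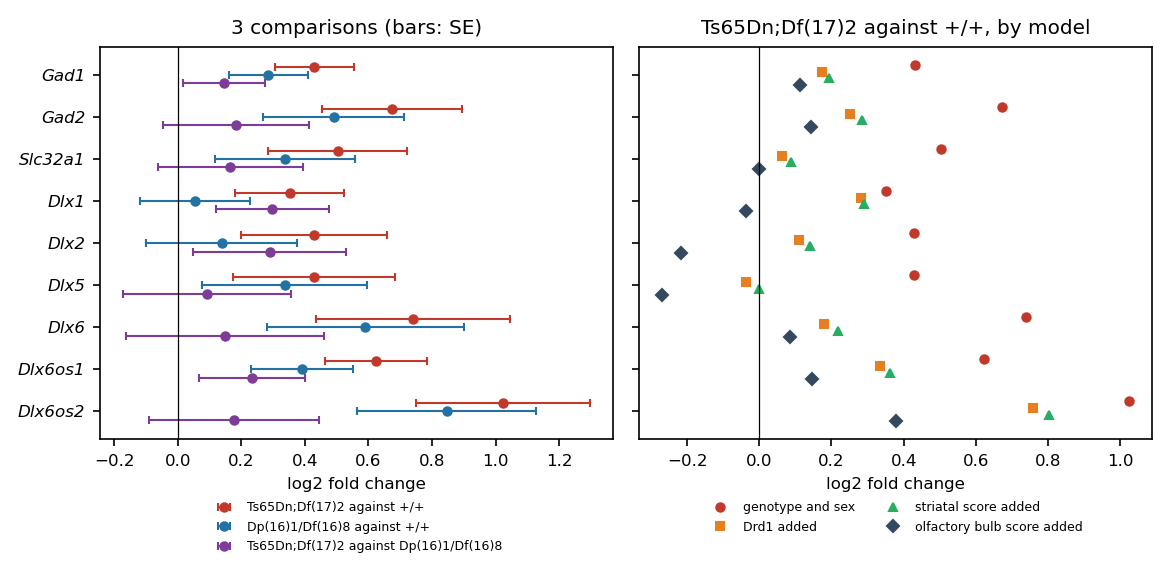
The left panel plots the log2 fold change of each member with its SE in the 3 comparisons, and the right panel the log2 fold change of Ts65Dn;Df(17)2 against +/+ in 4 models, with genotype and sex alone or with Drd1, a striatal score or an olfactory bulb score added. All 9 members lie to the right of 0 in each comparison in the left panel, and in the right panel each member moves towards or past 0 when a marker is added, as Gad1 does from 0.43 to 0.17 with Drd1.

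The comparison of Dp(16)1/Df(16)8 with +/+ asks the same of the duplication without an additional chromosome, and shares its +/+ libraries with the comparison above. No member passed: 0 of 9 were higher and 0 lower by edgeR, DESeq2 or limma, against 0.418% of all tested genes called higher and 0.156% called lower by edgeR (higher by DESeq2 0.592%, by limma 0.405%), and 4 of 9 had an unadjusted p under 0.05 against 12.8% of all genes. All 9 fold changes were positive, as were 50.5% of those of all genes, with a median log2 of 0.34 against 0.0014 for all genes. Gad1 had 281, 448 and 534 CPM as lowest, median and highest level and a log2 fold change of 0.29 (SE 0.12, adjusted p = 0.334 by edgeR). Gad2 had 179, 456 and 579 CPM and a log2 fold change of 0.49 (SE 0.22), and Slc32a1 had 38.1, 111 and 161 CPM and a log2 fold change of 0.34 (SE 0.22). Slc32a1 reached both its lowest and its highest level of the series in this genotype.

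Of the factors, Dlx1 had 9.15, 14.02 and 22.1 CPM and a log2 fold change of 0.05 (SE 0.17), and Dlx2 had 2.54, 4.23 and 9.39 CPM and a log2 fold change of 0.14 (SE 0.24). Dlx5 had 3.05, 8.79 and 13.6 CPM and a log2 fold change of 0.34 (SE 0.26), and Dlx6 had 2.56, 12.3 and 17.99 CPM and a log2 fold change of 0.59 (SE 0.31). Dlx6os1 had 33.8, 63.2 and 96.2 CPM and a log2 fold change of 0.39 (SE 0.16), and Dlx6os2 had 0.61, 1.97 and 4.02 CPM and the highest log2 fold change, 0.85 (SE 0.28, adjusted p = 0.203 by edgeR). The difference was uneven across runs of animal numbers. All 9 members were higher in 2 runs, with a median difference in log2 CPM of 0.80 over 3 and 3 mice and 0.70 over 3 aneuploid and 5 euploid mice, 6 of 9 were higher in a run of 1 and 1, and 2 of 9 in the last, with a median of -0.17 over 3 and 3 mice. Here too, the share of all genes higher within a run was not taken.

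The direct comparison of the aneuploid genotypes asks whether the freestanding chromosome differs from the duplication. No member passed, with 0 of 9 higher and 0 lower by edgeR, DESeq2 or limma, against 0.0436% of all genes called higher and 0.00623% called lower by edgeR (higher by DESeq2 0.0436%, by limma 0.0374%), and 0 had an unadjusted p under 0.05 by edgeR against 4.1% of all genes. The log2 fold changes of Ts65Dn;Df(17)2 against Dp(16)1/Df(16)8 ran from 0.09 for Dlx5 (SE 0.26) to 0.30 for Dlx1 (SE 0.18), with 0.15 (SE 0.13) for Gad1 and 0.23 (SE 0.17) for Dlx6os1, all 9 being positive, as were 50.1% of those of all genes. These standard errors leave room for differences of either sign for most members, so the genotypes are not shown to be alike. A genotype difference that depends on sex was not seen either: 0 of 9 members passed for the interaction of genotype and sex by edgeR and 0 had an unadjusted p under 0.05, against 0% of all genes adjusted and 4.22% unadjusted. No other tool was run for the interaction.

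Within genotypes, the members followed Drd1 to different degrees. The +/+ library with the lowest Drd1 (replicate 4, 12.8 CPM) held 274 CPM of Gad1, 160.2 of Gad2, 53.2 of Slc32a1, 3.05 of Dlx5, 3.35 of Dlx6 and 10.7 of Dlx1. The +/+ library with the highest Drd1 (replicate 6, 177 CPM) held 431 CPM of Gad1, 433 of Gad2, 119 of Slc32a1, 10.6 of Dlx5, 12.6 of Dlx6 and 10.8 of Dlx1. Between these mice of 1 genotype and sex Gad2, Slc32a1, Dlx5 and Dlx6 were thus far apart, and Dlx1 was not. In the library with the highest Drd1 of all (Dp(16)1/Df(16)8 replicate 9, 196 CPM), Dlx6os1 was at 96.2 CPM, the highest of its group, and Dlx1 at 11.4 CPM, among the lowest.

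**Figure D3:**
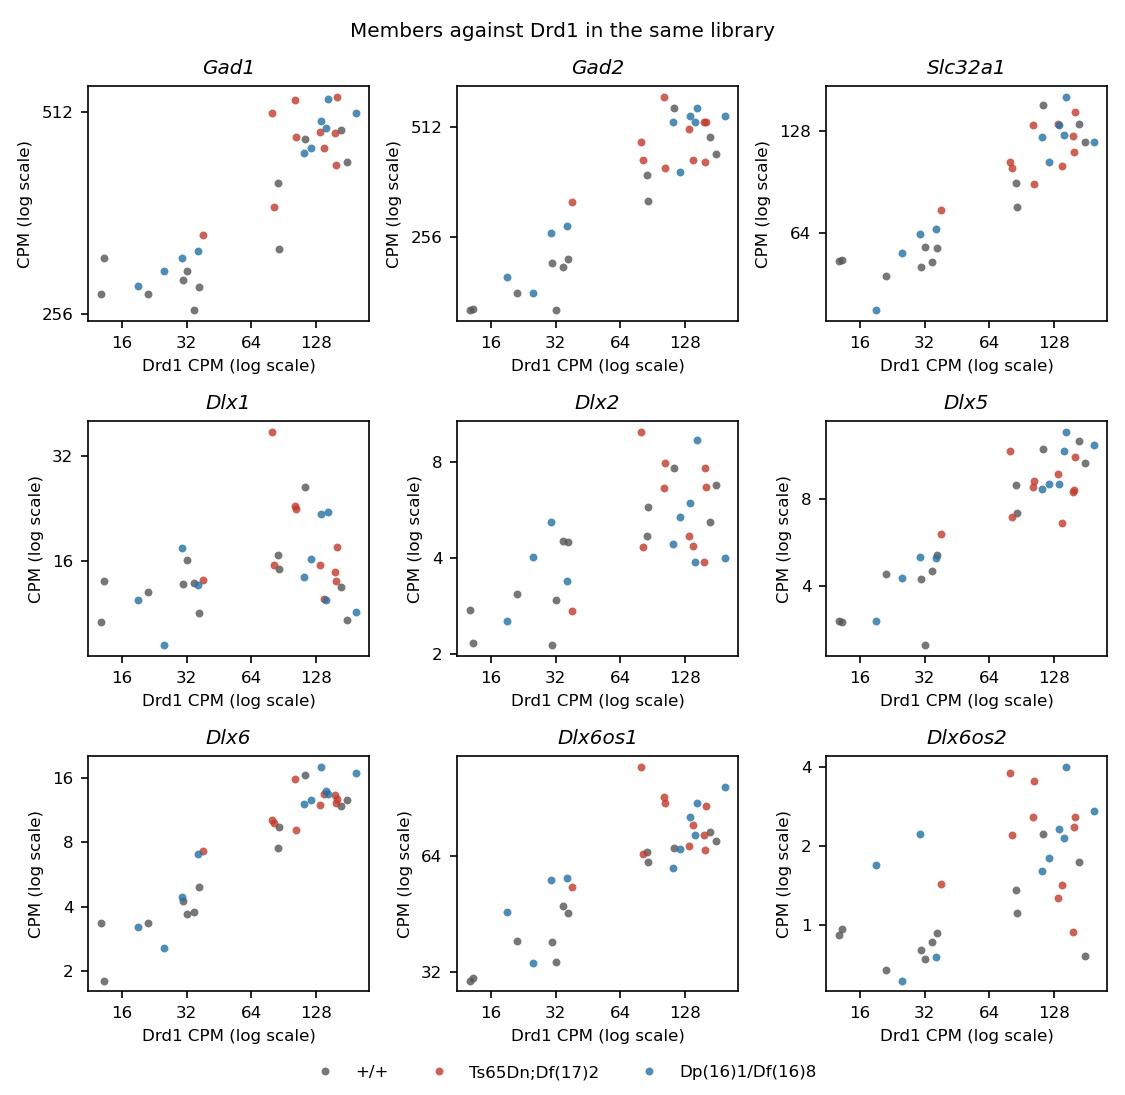
Each point is a library, with CPM of Drd1 on the horizontal and CPM of the member on the vertical axis, both on log scales, coloured by genotype. The libraries fall into 2 ranges of Drd1, 12.8 to 38.1 and 79.8 to 196 CPM, most higher values of Gad2, Slc32a1, Dlx5 and Dlx6 lie in the upper range, and Dlx1 shows no such step.

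As a term in the model within genotype and sex, log2 CPM of Drd1 had a positive slope past the threshold for 7 of 9 members, against 13.9% of all tested genes. Dlx6 had the steepest slope, 0.67 (SE 0.051) in log2 CPM per log2 CPM of Drd1, followed by Dlx5 at 0.52 (SE 0.05), Gad2 at 0.45 (SE 0.036) and Slc32a1 at 0.44 (SE 0.039). Dlx2 at 0.32 (SE 0.077), Dlx6os1 at 0.30 (SE 0.036) and Gad1 at 0.24 (SE 0.025) were shallower, with adjusted p by edgeR from 2.5e-12 for Dlx6 to 0.00163 for Dlx2 among the 7. Dlx6os2 (0.26, SE 0.10, adjusted p = 0.0659) and Dlx1 (0.06, SE 0.07, adjusted p = 0.552) did not pass. For comparison, all 20 striatal projection neuron markers passed, with slopes of 0.64 to 1.33. Drd1 is among these 20 and is itself the term, so its own slope was fixed in advance. The slope did not differ between genotypes for any member after adjustment by edgeR, against 0.00623% of all genes, and Dlx6 alone had an unadjusted p under 0.05, at 0.0323.

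How much of this relation lay between the ranges of Drd1 differed between members. With a term for the range, 1 member passed, Dlx6, with a slope of 0.53 (SE 0.13, adjusted p = 0.00891 by edgeR), against 3.01% of all genes called positive. None of the others passed. Slc32a1 was then at 0.29 (SE 0.094, adjusted p = 0.072 by edgeR), Gad2 at 0.27 (SE 0.083, adjusted p = 0.0604) and Dlx5 at 0.36 (SE 0.12, adjusted p = 0.0834). Dlx6os1 was at 0.16 (SE 0.084), Gad1 at 0.08 (SE 0.056) and Dlx2 at 0.08 (SE 0.19). Dlx1 was at -0.31 (SE 0.15) and Dlx6os2 at -0.24 (SE 0.24). Over all libraries of a genotype, Pearson's correlation with Drd1 passed for 7 of 9 members in +/+, 2 in Ts65Dn;Df(17)2 and 6 in Dp(16)1/Df(16)8 by two-sided permutation tests adjusted over 27 relations. Spearman's passed for 7, 0 and 7. Because the libraries cluster, these coefficients are not given. Without the 2 libraries farthest from the median of Drd1 the Pearson counts were 9, 0 and 6. Within a range and a genotype, where at least 6 libraries allow a value, 0 of 27 relations passed after adjustment by either coefficient. Before adjustment, the exact permutation p was under 0.05 by Pearson's for 2 members in +/+, 1 in Ts65Dn;Df(17)2 and 1 in Dp(16)1/Df(16)8, and by Spearman's for 2, 0 and 4. The smallest p was that of Dlx6os1 in the upper range of Dp(16)1/Df(16)8, with Pearson's r of 0.90 (exact permutation p = 0.00833, adjusted 0.118) and Spearman's rho of 0.94 (exact permutation p = 0.0167, adjusted 0.184) over 6 libraries. Dlx1 had a negative r in the upper range of Ts65Dn;Df(17)2, -0.67 over 9 libraries (exact permutation p = 0.0374, adjusted 0.252), with a rho of -0.57 (exact permutation p = 0.121, adjusted 0.407).

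**Figure D4:**
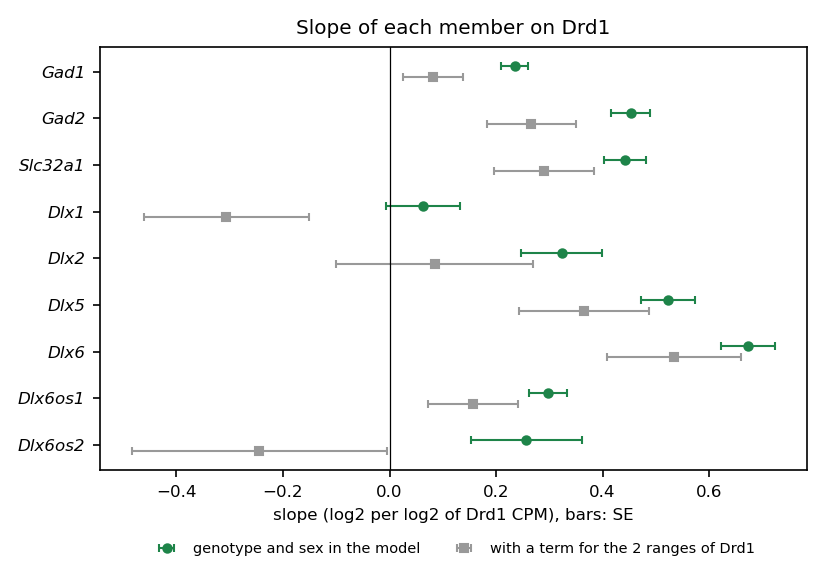
Points give each member's slope on Drd1, in log2 CPM per log2 CPM, with bars for the SE, from a model with genotype and sex (circles) and with a further term for the 2 ranges of Drd1 (squares). Dlx6 has the steepest slope in both models, 0.67 and 0.53, and Dlx1 and Dlx6os2 change sign.

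Cortical interneuron genes were summarised as a score, whose genes had slopes of both signs on Drd1, so that a steady score does not mean steady genes. The score of 10 interneuron genes, among them Lhx6, Pvalb, Sst and Vip, had means of 4.10 ± 0.13 log2 CPM (SD, n = 12) for +/+, 4.19 ± 0.13 (n = 10) for Ts65Dn;Df(17)2 and 4.22 ± 0.16 (n = 10) for Dp(16)1/Df(16)8. The striatal score had 6.10 ± 1.36, 7.27 ± 0.63 and 6.72 ± 1.38 in the same order. The difference in striatal score between Ts65Dn;Df(17)2 and +/+ was 1.17 (permutation p = 0.0225, adjusted over 9 comparisons 0.101) and that in interneuron score 0.09 (permutation p = 0.122, adjusted 0.275), so that neither passed. With both scores as terms, the same 7 members that had a slope on Drd1 passed for the striatal score, with slopes of 0.21 for Gad1 to 0.64 for Dlx6, against 11.9% of all genes. For the interneuron score 0 of 9 passed, against 2.31% of all genes, with 2 at an unadjusted p under 0.05. Its slopes had large errors: 1.00 (SE 0.42) for Dlx5, 0.99 (SE 0.59) for Dlx1, 1.12 (SE 0.68) for Dlx2 and 0.77 (SE 0.30, adjusted p = 0.143 by edgeR) for Dlx6os1, against -0.48 (SE 0.34) for Slc32a1 and -0.24 (SE 0.23) for Gad1. Of the score's own 10 genes, 8 had a positive slope on it and 4 passed, Reln, Ndnf, Htr3a and Adarb2. Lhx6 was at -0.42 (SE 0.41) and Pvalb at -1.55 (SE 0.70), so the score does not follow these 2 genes. After removal of genotype and sex means, Pearson's r of log2 CPM of Lhx6 ran from 0.45 with Dlx2 to 0.70 with Slc32a1 among the members. That of Lhx6 with Drd1 was 0.48.

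The ratio of the decarboxylase genes differed between libraries. The ratio of Gad1 to Gad2 counts was 1.30 ± 0.37 (SD, n = 12) for +/+, 1.005 ± 0.106 (n = 10) for Ts65Dn;Df(17)2 and 1.11 ± 0.26 (n = 10) for Dp(16)1/Df(16)8. It ran from 0.808 to 1.91 in +/+ and from 0.858 to 1.19 in Ts65Dn;Df(17)2, so the groups overlapped. The mean log2 ratio was lower in Ts65Dn;Df(17)2 than in +/+ by 0.33 (permutation p = 0.0224), which did not pass after adjustment over 15 comparisons of 5 ratios (0.115). That of Dlx6 to Dlx5 was higher by 0.40 (permutation p = 0.023, adjusted 0.115), and that of Slc32a1 to Gad2 was -0.19 (permutation p = 0.0177, adjusted 0.115). All +/+ libraries with a Gad1 to Gad2 ratio above 1.2 lay in the lower range of Drd1, and within that range r with Drd1 was -0.69 over 7 libraries (exact permutation p = 0.0875, adjusted 0.598) and rho -0.68 (exact permutation p = 0.109, adjusted 0.411).

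**Figure D5:**
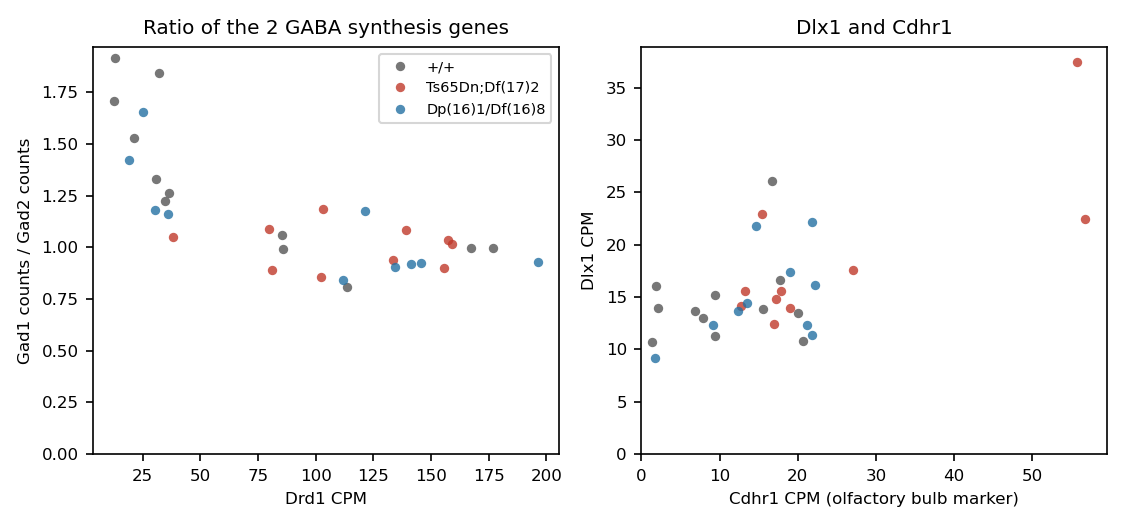
The left panel plots the ratio of Gad1 to Gad2 counts against CPM of Drd1, and the right panel CPM of Dlx1 against CPM of the olfactory bulb gene Cdhr1, 1 point per library, coloured by genotype. The ratio is highest, at 1.91, in a +/+ library with little Drd1 and lies near 1 in the upper range, and the 2 libraries with over 50 CPM of Cdhr1 hold 22.5 and 37.5 CPM of Dlx1.

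Members varied together to different degrees. Over the 36 pairs of tested members, Pearson's r of log2 CPM after removal of genotype and sex means ran from 0.28 to 0.96 with a median of 0.68 over the 32 libraries, which share the ranges of Drd1. The highest was that of Gad2 and Slc32a1 (0.96) and the lowest that of Dlx1 and Dlx6 (0.28). The neighbours Dlx5 and Dlx6 had 0.88, and the neighbours Dlx1 and Dlx2 had 0.60.

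By the same measure, tested genes were ranked by likeness to each member, leaving out symbols with a Gm number or the letters Rik. The genes most like Gad2 included Slc10a4 (0.97) and Abat, which encodes the enzyme that breaks down GABA (0.97). Gad1 was most like Slc32a1 (0.94), Zeb1 (0.94) and B3galt5 (0.94), and Slc32a1 most like Abat (0.99), the calcium channel subunit gene Cacna2d2 (0.97) and Pard3 (0.97). Dlx5 was most like Pde1c (0.96), Gad2 (0.94) and the striatal neuropeptide gene Tac1 (0.93), and Dlx6 like Cacng4 (0.95), Slc10a4 (0.95) and Spata13 (0.95). Dlx6os1 was most like the transcription factor genes Pbx3 and Meis2 (0.92 each) and Dlx5 (0.91). Dlx1, Dlx2 and Dlx6os2 had no gene as close among those ranked. Their nearest were Sema6a (0.76), Zic1 (0.76) and Rtbdn (0.75) for Dlx1 and Myo10 (0.83), Map3k1 (0.81) and Grk5 (0.79) for Dlx2, while those of Dlx6os2 included Btg1 (0.77) and Igfbpl1 (0.75). These coefficients are descriptions of 32 libraries that share composition and depth.

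Other genes that handle GABA were called in the slope on Drd1 and not between genotypes. Of 14 tested genes for GABA uptake, breakdown and supply or for chloride transport, 0 were called in Ts65Dn;Df(17)2 against +/+, with a median log2 fold change of 0.10. The nearest to the threshold were Slc12a5, the neuronal chloride exporter gene, at -0.10 (SE 0.03, adjusted p = 0.0633 by edgeR) and Aldh5a1, which encodes the last enzyme of GABA breakdown, at 0.21 (SE 0.07, adjusted p = 0.0728). On Drd1, 6 of the 14 had a positive slope past the threshold, among them Abat at 0.31 (SE 0.024), Pdxk, the kinase that makes the cofactor of the decarboxylases, at 0.13 (SE 0.021) and Aldh5a1 at 0.12 (SE 0.018). Abat thus had a slope between those of Gad1 and Slc32a1.

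Among the genes beside the Dlx clusters, 7 were tested, and the 2 called higher in Ts65Dn;Df(17)2 were Dlx6os1 and Dlx6os2 themselves. Sem1, beside the cluster of Dlx5 and Dlx6, had a log2 fold change of 0.23 (SE 0.08, adjusted p = 0.0853 by edgeR) and Metap1d, beside Dlx1 and Dlx2, 0.55 (SE 0.21, adjusted p = 0.112). The antisense gene Dlx1as, which shares exon bases with Dlx1, had a negative slope on Drd1 of -0.22 (SE 0.068, adjusted p = 0.0119), and the integrin gene Itga6 a positive one of 0.10 (SE 0.033, adjusted p = 0.0286).

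Of 16 transcription factor genes of cortical interneurons, 1 fell and 0 rose in Ts65Dn;Df(17)2 against +/+. Satb1 fell by 0.82 on the log2 scale (SE 0.23, adjusted p = 0.0403 by edgeR), whereas Sp9, which acts beside the Dlx factors in striatal development, had 0.72 (SE 0.25, adjusted p = 0.0817) and Lhx6, of interneurons from the medial ganglionic eminence, 0.34 (SE 0.13, adjusted p = 0.114). On Drd1, 5 of the 16 had a positive and 6 a negative slope past the threshold, among them Sp9 at 0.48 (SE 0.057) and Satb1 at -0.43 (SE 0.048). Of 17 interneuron subclass genes 2 rose, Adarb2 by 0.46 (SE 0.10, adjusted p = 0.00618) and Ndnf by 0.57 (SE 0.16, adjusted p = 0.0399), and 0 fell. Pvalb, of fast-spiking basket cells, was at -0.67 (SE 0.22, adjusted p = 0.0752). On Drd1, 1 of the 17 subclass genes had a positive slope past the threshold, Chat of cholinergic neurons at 1.41 (SE 0.12), and 6 a negative one, among them Vip at -0.46 (SE 0.059), Cck at -0.34 (SE 0.052) and Crhbp at -0.29 (SE 0.049). The other 10 subclass genes, Sst and Pvalb among them, did not pass.

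Markers of other cell types were taken in the same comparison. Of 20 striatal projection neuron genes 0 passed in Ts65Dn;Df(17)2 against +/+ and all 20 were positive, with a median log2 fold change of 0.68, and of 10 striatal transcription factor genes 0 passed, 10 were positive and all 10 had a positive slope on Drd1, with Bcl11b at 0.47 (SE 0.023) and Meis2 at 0.53 (SE 0.03). Of 10 excitatory cortical genes 5 fell, among them Rorb by 0.55 (SE 0.12, adjusted p = 0.0122 by edgeR) and Emx1 by 1.01 on the log2 scale (SE 0.28, adjusted p = 0.0373), and all 10 had a negative slope on Drd1 past the threshold. Of 10 tested olfactory bulb and neuroblast genes 0 passed and 10 were positive, with Cdhr1 at 1.24 (SE 0.37, adjusted p = 0.0535). Of 9 tested thalamic and septal genes 1 fell and 0 rose, Rora by 0.37 (SE 0.10, adjusted p = 0.0373), and of 12 glial and vascular genes 0 passed. The part of these cell types in the levels of Gad1, Dlx6os1 and Dlx6os2 was not tested beyond the models with marker terms.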

How the data were processed

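The authors deposited 1 table of raw counts per gene, whole numbers with no normalisation. Per the submitters' processing notes, the tools were STAR 2.7.9a, featureCounts (Subread 1.6.4) and bcl2fastq 2.20 and the builds named were GRCh38 and GRCm38.p6; the strand setting and the annotation release are not given in the sources used here. All 32 columns were used. Coordinates came from GENCODE M21 by identifier (54349 of 55401 found) and promoter windows from RefSeq. The members, gene lists and tests were chosen with earlier results of these data known. In edgeR 4.0.16 (R 4.3.3), genes were kept by filterByExpr (16042 genes, 99.75% of counts), scaled by TMM and fitted with genotype and sex over all libraries; quasi-likelihood F tests were adjusted over all genes (Benjamini-Hochberg, threshold 0.05). SEs were obtained as |log2 fold change| over the root of the F statistic. Log2 CPM uses a prior count of 2. Permutation tests used 100000 resamples, or all orders with fewer than 10 libraries (numpy 2.4.6). Alternatives were other scaling, filters and terms, limma 3.58.1 (voom), DESeq2 1.42.0 and leaving out each library. Replicate numbers follow accession order. Each library is labelled with its own animal number. Named genes are all members, Drd1, up to 4 genes of each list with the smallest adjusted p in the comparison, and the 3 genes most like each member, of which a few are not reported here; marker genes such as Xist, Cdhr1, Eomes and Tbx21, and other genes named outside that rule, were chosen after their values were seen. Scripts were tested on simulated counts.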

Additional observations from a re-analysis of the deposited data

Results flagged for a closer look

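In groups of 10 libraries, 3 of the 30 sets of values tested held a highest library whose gap to the next, divided by the range of the group, was above Dixon's 95% critical value of 0.466. Chance alone gives about 1 in 20 such sets. Dlx1 was at 37.5 CPM in Ts65Dn;Df(17)2 replicate 6, with the next library at 22.9 CPM. This is 1 of the 2 libraries with over 50 CPM of the olfactory bulb gene Cdhr1, and the part of that in the level of Dlx1 was not tested. Dlx2 was at 9.39 CPM in Dp(16)1/Df(16)8 replicate 4, with the next library at 5.95 CPM. The ratio of Dlx2 to Dlx1 counts was 0.548 in Ts65Dn;Df(17)2 replicate 5, with the next library at 0.382.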

How the results depend on the processing

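The 3 members called higher in Ts65Dn;Df(17)2 against +/+ became 1 with no filter on low counts, against 0.526% of all genes called higher. The count was also 1 without the 2 animals whose numbers lie far below the rest (Ts65Dn;Df(17)2 replicates 4 and 5), against 1.0%. The count was 0 with Drd1, the striatal score, both scores, the runs of animal numbers or the olfactory bulb score as terms, against 0.468% to 0.692% of all genes. It was 0 without the 2 libraries above 50 CPM of Cdhr1, against 1.12%. It was 3 with DESeq2 size factors (against 1.66% of all genes), DESeq2 (2.66%) or limma (2.11%), and 0 to 4 when a library was left out. Fits with no sex term and with only the 2 genotypes compared were also run. They called 1.28% and 2.33% of all genes higher, and their counts of members are not reported here. The olfactory bulb score, the Cdhr1 alternative and the ranges of Drd1 were chosen after seeing the data. The counts for Dp(16)1/Df(16)8 against +/+, for the aneuploid genotypes and for the interaction were 0 in every alternative run, and that for the slope on Drd1 was 7 to 8 when a library was left out and 1 with a term for the 2 ranges. The correlations with Drd1 that passed in Ts65Dn;Df(17)2 went from 2 to 0 with CPM in place of log2 CPM and to 0 without the 2 farthest libraries.

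Fold changes of single members that changed sign were as follows, in log2. Against +/+ in Ts65Dn;Df(17)2, Dlx5 was -0.0364 with Drd1, -0.00149 with the striatal score, -0.17 with both scores and -0.27 with the olfactory bulb score. Dlx2 was -0.0543 with both scores and -0.22 with the olfactory bulb score, which also gave -0.0363 for Dlx1 and -0.00119 for Slc32a1. In Dp(16)1/Df(16)8 against +/+, Dlx1 was -0.15 with both scores and -0.16 with the olfactory bulb score, Dlx2 was -0.0259 with Drd1, -0.0173 with the striatal score, -0.19 with both and -0.18 with the olfactory bulb score, and Dlx5 was -0.0955 with both and -0.051 with the olfactory bulb score. Between the aneuploid genotypes, Dlx5 was -0.0683 with Drd1, -0.0422 with the striatal score, -0.0707 with both, -0.12 with the runs and -0.22 with the olfactory bulb score, and Dlx6 was -0.0288 with Drd1, -0.0357 with the runs and -0.0849 with the olfactory bulb score. That score gave -0.00834 for Gad2, -0.0345 for Dlx2, -0.0133 for Slc32a1 and -0.12 for Dlx6os2, which was -0.0752 without the libraries rich in Cdhr1. With a term for the ranges, the slope on Drd1 was -0.31 for Dlx1 and -0.24 for Dlx6os2, and with the runs the slope of Dlx6 on the interneuron score was 0.20. Leaving out a library gave -0.0343 to 0.15 for Dlx1 and -0.0107 to 0.24 for Dlx2 in Dp(16)1/Df(16)8 against +/+, and -0.00942 to 0.22 for Dlx5 between the aneuploid genotypes, negative without Dp(16)1/Df(16)8 replicate 4 or 6, replicate 4 and replicate 10. The causes were not tested. No paired analysis was possible because the labels give neither replicate numbers that groups share nor litters; runs of nearby animal numbers served as a term in the model instead. Members of few counts, Dlx6os2 above all, are limited by depth.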

Other observations

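The score of olfactory bulb genes, the mean log2 CPM of Doc2g, Cdhr1 and Th, was chosen after the values were seen, and its relation to the members is given as a description. Eomes and Tbx21, also listed for it, did not pass the filter on low counts. With genotype and sex in the model, all 9 tested members had a positive slope on it past the threshold by edgeR, against 9.52% of all genes. The slopes ran from 0.25 for Gad1 and 0.28 for Dlx1 (adjusted p = 0.00575) to 0.63 for Dlx5 and 0.68 for Dlx6, in log2 CPM per unit of the score. Dlx1 and Dlx6os2, the members without a slope on Drd1 past the threshold, thus passed for this score, with 0.50 for Dlx6os2. Drd1 itself had a slope of 1.05 on the score, so that the striatal and olfactory bulb scales overlap in these libraries. The mean of the score was 1.29 ± 1.03 (SD, n = 12) for +/+, 2.62 ± 0.73 (n = 10) for Ts65Dn;Df(17)2 and 1.98 ± 0.89 (n = 10) for Dp(16)1/Df(16)8.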
